A study of Mus musculus with 19 samples.

Results

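Nuclear-retained long noncoding RNAs (lncRNAs) and host genes of small nucleolar RNAs (snoRNAs) were followed across the 4 arms of a xenograft drug study. The genes were picked by symbol, with earlier results of these same libraries known: MALAT1, NEAT1 and KCNQ1OT1 as nuclear lncRNAs, and SNHG1, SNHG5, SNHG6, SNHG8, SNHG12 and GAS5 as snoRNA hosts. Of these 9 symbols, 8 have a row among the 31276 genes of the count table, and SNHG6 was not analysed here. All 8 were among the 16704 genes that passed the filter on low counts. Because the genes were selected on values of these libraries, their fold changes and calls are given as a description and not as a test.

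HCC827, a human lung adenocarcinoma line driven by mutant EGFR, was grown as tumours in NCG mice, a strain that lacks T, B and NK cells but keeps myeloid cells. Tumours were treated with DMSO (control, n = 5), with 6-thio-dG (thio, n = 4), with osimertinib (n = 5) or with osimertinib plus 6-thio-dG (combination, n = 5). 6-thio-dG is a nucleoside that telomerase adds to telomeres, and osimertinib is an inhibitor of mutant EGFR. The study asked what the combination does to tumour cells that persist under targeted therapy. All 4 arms come from 1 cell line. The sources used here do not give the dose, the schedule, the day of sampling or the age of the mice, nor whether each library is a different mouse, so the spread below is that between libraries and may be partly technical.

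MALAT1 collects at nuclear speckles, bodies that store splicing factors. NEAT1 is the scaffold of paraspeckles, bodies that form on its long isoform and hold RNA-binding proteins. KCNQ1OT1 is an imprinted antisense transcript inside KCNQ1 that silences neighbouring genes on the paternal chromosome. The snoRNA hosts carry snoRNAs in their introns: the snoRNAs guide modification of ribosomal RNA, while the spliced host RNA often begins with the 5′ terminal oligopyrimidine tract of translation genes, and for several hosts it is removed by nonsense-mediated decay. Libraries were made from poly-A RNA. The mature MALAT1 end is not a classical poly-A tail but holds an A-rich tract of its own, and the long NEAT1 isoform lacks a poly-A tail, so counts per gene do not separate the NEAT1 isoforms.

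The libraries held 17731752 to 35397346 counts. The 13 protein-coding genes of the mitochondrial genome took 7.04% to 9.29% of the counts in control, 5.27% to 7.86% in thio, 8.62% to 16.0% in osimertinib and 11.0% to 30.2% in combination. Levels are given as CPM, the count after each library is scaled to the same total. The summed level of 271 olfactory receptor genes, typical of odour-sensing neurons, was 2.12 to 8.59 CPM in control and reached 22.8 CPM in thio 3, 33.5 CPM in combination 3 and 39.5 CPM in combination 5. Combination 3 and combination 5 were the highest of all, while thio 3 was the highest of its arm but close to combination 2 at 22.6 CPM. These olfactory values use library totals without TMM scaling. These 3 libraries had been doubted in an earlier reading of the data, and the counts that matter are given with and without them. The 8 epithelial markers of the tumour cells summed to 16868 to 25190 CPM in combination and 20641 to 27697 CPM in control. Summed fibroblast markers, 8 genes, were 386 to 901 CPM in control, 241 to 376 CPM in thio, 448 to 800 CPM in osimertinib and 363 to 821 CPM in combination. Over all libraries the macrophage markers summed to 8.11 to 21.6 CPM, the endothelial markers to 4.38 to 13.6 CPM, the adipocyte markers to 0.701 to 5.53 CPM and the erythroid markers to 0 to 1.71 CPM. Skeletal muscle markers reached 778 CPM in control and 424 CPM in combination, from 21.8 CPM upwards. Whether mouse and human reads were separated before counting is not given in the sources used here.

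In combination tumours all 3 nuclear lncRNAs and 3 of the 5 snoRNA hosts passed the threshold above control. Osimertinib alone took none of the 8 past it and 6-thio-dG alone took KCNQ1OT1 past it. Below, a gene is "called" when its Benjamini-Hochberg adjusted p from edgeR's quasi-likelihood test over all 16704 genes is under 0.05. Against control, 6 of the 8 genes were called in combination, all 6 higher. The background was high, since 48.7% of all tested genes were called, 25.7% as higher and 23.1% as lower. The comparisons with control share its 5 libraries. The unadjusted p needed for a call differs between comparisons, so called in 1 arm and uncalled in another does not show that the arms differ. Against control, KCNQ1OT1 was uncalled in osimertinib at an unadjusted edgeR p of 0.0033, while SNHG5 was called in combination at 0.0144. The log2 difference of KCNQ1OT1 was 2.36 in osimertinib and 2.66 in thio. How many of all tested genes separate without overlap was not counted, so a lack of overlap below is not shown to be particular to these genes. Without combination 3, combination 5 and thio 3, 4 of the 8 were called, namely NEAT1, KCNQ1OT1, SNHG1 and SNHG12, beside 28.3% of all tested genes. Combination 3 and combination 5 had the highest MALAT1, NEAT1 and KCNQ1OT1 levels of their arm. Leaving them out therefore lowers the combination mean of these genes in any case. It also leaves fewer libraries in combination and thio, so a lost call there is not a separate check. Under upper-quartile scaling the same 6 genes were called, the median log2 change of all genes moved from 0.02 to 0.13, and 63.4% of all called genes were higher, against 52.7% under TMM. In bulk tumour RNA a change in the number of cells of a type and a change in RNA per cell cannot be told apart.

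MALAT1 lay above all controls in 4 of the 5 combination libraries. Its TMM-scaled level in control was 4602, 5414, 6592, 7063 and 6500 CPM. In thio it was 5073, 4796, 3320 and 4134 CPM. These thio values overlapped control only at its low end, and 2 thio libraries lay below every control library. In osimertinib MALAT1 was 6383, 4950, 3527, 7349 and 12109.6 CPM, and osimertinib 4 and 5 lay above the control range, the second of them clearly. In combination it was 6984, 12720, 13115, 9228 and 22731 CPM. Combination 1 lay within the control range, and the other combination libraries lay above all controls.

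The log2 fold change of MALAT1 in combination against control was 1.10 ± 0.29 (SE), and MALAT1 was called, also without each single library. Without combination 3, combination 5 and thio 3 the same difference was 0.67 and was no longer called. Against osimertinib alone it was 0.92 ± 0.29 and called, but the call was lost without any 1 of osimertinib 1 to 4 or of combination 2, 3 and 5, with a low of 0.62 without combination 5. Against thio alone it was 1.58 ± 0.32, the groups did not overlap, and the call held without each single library. Thio against control gave -0.48 ± 0.31 and osimertinib against control gave 0.19 ± 0.29, and neither was called. MALAT1 took 0.462% to 0.739% of a library's counts in control and 0.720% to 2.04% in combination.

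TALAM1, the antisense transcript of the MALAT1 locus, was counted separately at 27 to 48 counts in control and 70 to 189 counts in combination. It rose by 2.07 ± 0.36 on the log2 scale in combination against control (edgeR, adjusted p = 0.000261). Strand was not kept in these libraries, and where MALAT1 and TALAM1 overlap their reads cannot be told apart. TALAM1 held 0.0164% to 0.0880% of the MALAT1 count of the same library.

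NEAT1 was higher in combination than in control or osimertinib, with no overlap in either case. Control libraries had 394, 496, 560, 654 and 495 CPM of NEAT1. Thio libraries had 792, 505, 1105 and 634 CPM, of which thio 1 and thio 3 lay above all controls. Osimertinib libraries had 513, 579, 359, 655 and 763 CPM, close to the control range. Combination libraries had 849, 1222, 1386, 929 and 1993 CPM. The lowest combination library was above the highest osimertinib library, whereas thio 3 lay within the combination range.

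The NEAT1 difference was 1.30 ± 0.24 (log2, SE) against control and 1.15 ± 0.24 against osimertinib, and both calls held without each single library. Without combination 3, combination 5 and thio 3 the difference from osimertinib was 0.81 and not called, in a setting where only 6 of all tested genes were called. Against thio the difference was 0.75 ± 0.26 and called, but it lost the call without thio 2, thio 4 or combination 5, at 0.59, 0.66 and 0.53. Thio against control gave 0.55 ± 0.25, which was not called.

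KCNQ1OT1 was near the floor of detection in control, and its mean was higher in every treated arm. Control libraries held 25, 20, 4, 2 and 0 counts of it, the last of which allows up to 3 counts, or 0.0976 CPM. Thio libraries held 75, 27, 107 and 71 counts, and osimertinib libraries held 35, 84, 37, 77 and 73. Combination libraries held 43, 81, 168, 81 and 196 counts. In TMM-scaled terms the means were 0.411 ± 0.486 CPM (SD, n = 5) in control, 2.54 ± 1.58 CPM (n = 4) in thio, 2.07 ± 0.962 CPM (n = 5) in osimertinib and 5.44 ± 4.29 CPM (n = 5) in combination. Every combination library was above every control library, and combination 5 was the highest of all libraries, at 12.3 CPM.

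The log2 difference of KCNQ1OT1 from control was 3.75 ± 0.72 in combination, which was called, also without each single library. It was 2.66 ± 0.74 in thio, which was called, among 13.9% of all tested genes called in that comparison and 9.27% called as higher. That call was lost without control 3, at 2.43, or without thio 3, at 2.19. In osimertinib it was 2.36 ± 0.71, which was not called with all libraries but was called without control 1, at 3.11, and without combination 1, at 2.36. No other of the 8 genes was called in thio against control, and none was called in osimertinib against control by edgeR, where 4.16% of all tested genes were called. In that comparison 4 of the 8 had an unadjusted p under 0.05, and DESeq2 called 1, KCNQ1OT1. These folds rest on 0 to 25 counts per control library, so their size depends on very few reads. Most control libraries lay below the count minimum of the filter, so KCNQ1OT1 was kept for testing through the treated arms. A gene kept in this way tends to be higher in those arms than in control. Calls that held without each single library do not check this. With no filter KCNQ1OT1 was also called in each comparison of a treated arm with control.

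**Figure D1:**
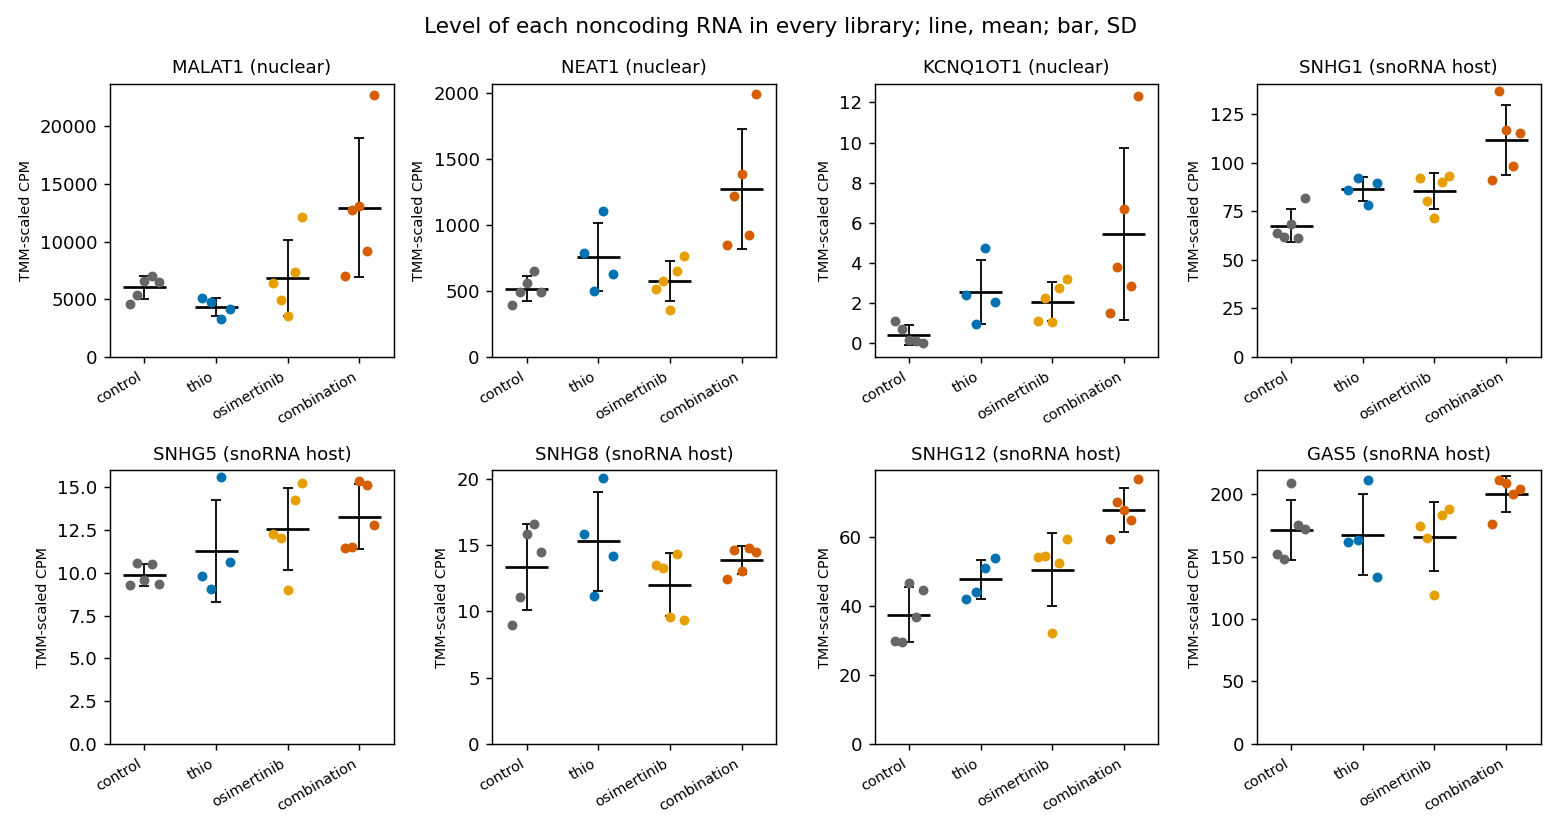
TMM-scaled level (CPM) of the 8 genes, 1 panel each, for every library by group. Each point is 1 library, the line is the group mean and the bar is ± 1 SD (n = 5, and 4 in thio). Combination libraries are the highest for NEAT1 on average and lie fully above control for NEAT1, KCNQ1OT1, SNHG1, SNHG5 and SNHG12, while SNHG8 overlaps in all groups. Such separation was not counted over all tested genes.

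KCNQ1 and KCNQ1OT1 lie on opposite strands of the same region, so overlapping reads may be shared between them. KCNQ1, which encodes a potassium channel subunit, had 1.37 ± 1.58 CPM (SD, n = 5) in control, 4.40 ± 2.18 CPM (n = 4) in thio, 0.857 ± 0.465 CPM (n = 5) in osimertinib and 0.552 ± 0.261 CPM (n = 5) in combination. It fell by 3.01 ± 0.63 on the log2 scale in combination against thio (edgeR, adjusted p = 0.000987), where KCNQ1OT1 gave 1.09 ± 0.66 and was not called. CDKN1C, an imprinted inhibitor of cyclin-dependent kinases in the same domain, rose by 1.12 ± 0.27 in combination against control (edgeR, adjusted p = 0.00259), from 4.09 to 8.92 CPM.

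The balance between NEAT1 and MALAT1 differed most in thio, a comparison chosen after the values were seen. Control libraries had 85.7, 91.5, 84.9, 92.6 and 76.1 NEAT1 counts per 1000 MALAT1 counts. Thio libraries had 156, 105, 333 and 153 NEAT1 counts per 1000 MALAT1 counts, all above every control. Osimertinib libraries had 80.4, 117, 102, 89.1 and 63.0, which overlapped control. Combination libraries had 122, 96.1, 106, 101 and 87.7, which overlapped all other groups. The value of 333 came from thio 3, one of the 3 doubted libraries, and the other thio libraries were also above control. As shares of counts per library, both RNAs have the same denominator, so this ratio does not depend on the scaling.

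Together the 3 nuclear lncRNAs took 0.502% to 0.807% of the counts in control, 0.395% to 0.584% in thio, 0.392% to 1.27% in osimertinib and 0.808% to 2.22% in combination. The group means of this share and of the mitochondrial share came in the same order, lowest in thio and highest in combination. Within an arm the order could differ. Osimertinib 4 had 16.0% mitochondrial and 0.821% nuclear lncRNA, and osimertinib 5 had 15.3% and 1.27%. Combination 5 had the highest value of both, 30.2% mitochondrial and 2.22% nuclear lncRNA, and combination 1 had the lowest of both within its group, 11.0% and 0.808%. Thio 3 had the lowest mitochondrial share of all libraries, 5.27%, and a nuclear lncRNA share of 0.395%, of which MALAT1 was 0.296%. The NEAT1 and KCNQ1OT1 levels of thio 3 were nevertheless the highest of its arm, at 1105 and 4.74 CPM. With the mitochondrial percent as a covariate, none of the 8 genes was called by edgeR in combination against control, though 4 of them had an unadjusted p under 0.05. In that fit 3.24% of all tested genes were called. The log2 difference of MALAT1 was then -0.04, that of NEAT1 0.55 and that of KCNQ1OT1 2.05. The olfactory receptor level as a covariate likewise left none of the 8 called by edgeR, with 2 at an unadjusted p under 0.05, and 0.814% of all tested genes called. The log2 difference from control was then 0.32 for MALAT1, 0.35 for NEAT1 and 1.09 for KCNQ1OT1. Both covariates were higher in every combination library than in every control library. For this comparison these fits therefore cannot separate the covariate from the arm. With mitochondrial counts left out of the total, the nuclear lncRNAs took 0.540% to 0.882% in control and 0.908% to 3.18% in combination, again without overlap.

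**Figure D2:**
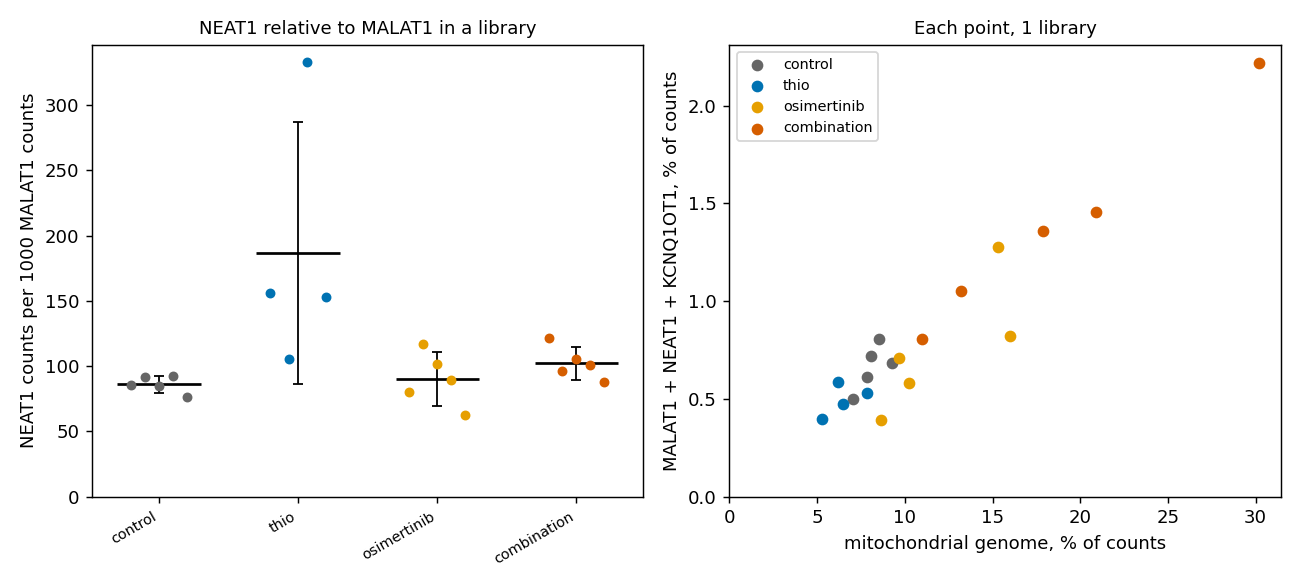
Left, NEAT1 counts per 1000 MALAT1 counts for each library by group, with the group mean as a line and ± 1 SD as a bar (n = 5, and 4 in thio). Right, percent of each library's counts in MALAT1, NEAT1 and KCNQ1OT1 together (vertical) against the percent in 13 mitochondrial genes (horizontal), 1 point per library. All thio libraries lie above control on the left, and combination 5 is the highest on both axes on the right.

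Among the snoRNA hosts, SNHG1, SNHG5 and SNHG12 were higher in combination than in control without overlap, whereas SNHG8 and GAS5 overlapped. The share of all tested genes that separate in this way was not counted. SNHG1 carries several C/D box snoRNAs, which guide methylation of ribosomal RNA, and its spliced RNA is a decay target. Its level was 63.9, 62.0, 68.4, 61.5 and 82.0 CPM in control. In thio it was 86.0, 92.4, 78.3 and 89.5 CPM, and in osimertinib it was 92.1, 80.6, 71.6, 89.9 and 93.4 CPM. Only control 5 among the controls overlapped with either single-drug arm. In combination SNHG1 was 91.3, 137, 117, 98.2 and 116 CPM.

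SNHG1 gave 0.34 ± 0.12 (log2, SE) in osimertinib, 0.36 ± 0.13 in thio and 0.73 ± 0.12 in combination, each against control, of which the last was called, also without each single library. The thio difference was called without control 5, at 0.44, or without combination 1, at 0.36. Combination was called higher than osimertinib by 0.39 ± 0.12 and higher than thio by 0.37 ± 0.13. The first of these calls was lost without osimertinib 1, 2 or 3 or combination 2, 3 or 5, at 0.31 to 0.42. The second was lost without thio 1, thio 3 or combination 2, at 0.35, 0.30 and 0.29. The 2 single-drug differences were close to each other and each was about the size of the step from a single drug to the combination.

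SNHG12 had the largest difference of combination from thio among the 5 hosts. Control libraries had 29.7, 29.6, 46.7, 37.0 and 44.6 CPM. Thio libraries had 42.0, 44.1, 51.1 and 53.8 CPM. Osimertinib libraries had 54.3, 54.5, 32.2, 52.4 and 59.6 CPM, with osimertinib 3 far below the other libraries of its arm. Combination libraries had 59.5, 70.4, 67.8, 64.9 and 77.0 CPM, above all control and thio libraries.

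The SNHG12 difference was 0.86 ± 0.16 against control and called, also without each single library. Against thio it was 0.51 ± 0.17 and called, and the call was lost without thio 1, at 0.43, or thio 2, at 0.46. Against osimertinib it was 0.42 ± 0.16 and not called, although it was called without osimertinib 5, at 0.49, or combination 1, at 0.47. Osimertinib against control was 0.43 ± 0.16, not called with all libraries and called at 0.56 without osimertinib 3. SNORD99, a snoRNA inside SNHG12, was the 1 gene in the table of 26 snoRNAs listed for these hosts, with 6 to 57 counts. It rose by 1.29 ± 0.30 in combination against control (edgeR, adjusted p = 0.00208), and its reads cannot be told apart from those of unspliced SNHG12.

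SNHG5, host of a pair of C/D box snoRNAs, varied over a narrow range. It was 9.27, 10.6, 9.57, 10.5 and 9.34 CPM in control and 9.84, 9.04, 15.6 and 10.6 CPM in thio, where thio 3 stood above the rest. It was 12.3, 12.0, 9.01, 14.2 and 15.2 CPM in osimertinib and 11.5, 11.5, 15.4, 15.1 and 12.8 CPM in combination. Only the combination libraries were all above control. The difference from control was 0.43 ± 0.16 in combination and called, the least secure of the 6 calls. It was lost without control 1, 3 or 5 or combination 3, 4 or 5, at 0.38 to 0.43. In osimertinib it was 0.35 ± 0.16, in thio 0.19 ± 0.17, and neither was called. Against thio the combination difference was 0.24 ± 0.17, not called with all libraries and called at 0.41 without thio 3.

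SNHG8, host of an H/ACA box snoRNA, was spread more widely in control, from 8.96 to 16.6 CPM, than in combination, from 12.5 to 14.8 CPM. It ran from 11.1 to 20.1 CPM in thio and from 9.33 to 14.3 CPM in osimertinib, so every group overlapped control. Its differences from control were -0.16 ± 0.18 in osimertinib, 0.19 ± 0.19 in thio and 0.05 ± 0.18 in combination, all uncalled. GAS5, whose introns hold many C/D box snoRNAs and whose spliced RNA accumulates when growth stops, varied little between arms. Control libraries had 152, 148, 209, 175 and 172 CPM and combination libraries had 176, 211, 209, 200.1 and 204 CPM. Control 3 was as high as the combination libraries, and the other controls were lower than all of them. Thio libraries had 161, 163, 212 and 133 CPM, and osimertinib libraries had 175, 165, 119, 184 and 188 CPM. GAS5 gave 0.22 ± 0.14 in combination, -0.05 ± 0.14 in osimertinib and -0.03 ± 0.15 in thio against control, all uncalled. For these 2 hosts the interval of 2 SE around the combination difference runs through 0, which does not show that they were the same as in control.

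Together the 5 hosts took 0.0265% to 0.0352% of the counts in control, 0.0301% to 0.0336% in thio, 0.0244% to 0.0364% in osimertinib and 0.0362% to 0.0433% in combination. The hosts thus moved over a far narrower range than the nuclear lncRNAs. Within combination, combination 5, the library with the largest mitochondrial share, had the second lowest host share of its arm, 0.0381%. With the mitochondrial percent as a covariate the combination difference from control was 0.50 for SNHG1, 0.60 for SNHG12 and 0.32 for SNHG5, none of them called. With the olfactory receptor level as a covariate it was 0.63, 0.68 and 0.07, and none was called. Neither covariate can be separated from the arm in this comparison.

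Between combination and the single drugs, 3 of the 8 genes were called higher than in osimertinib, where 15.8% of all tested genes were called and 8.09% as higher. Against thio 4 of the 8 were called higher, where 44.2% of all tested genes were called and 21.2% as higher. MALAT1, NEAT1 and SNHG1 are in both sets and SNHG12 is in the second. These comparisons share the combination libraries. With the 3 doubted libraries left out, MALAT1 alone was called against thio, beside 20.1% of all tested genes. Against osimertinib none of the 8 was then called by edgeR, beside 0.0365% of all tested genes, and 2 had an unadjusted p under 0.05. None of the 8 genes was called by edgeR for the interaction, which asks whether osimertinib acts differently with 6-thio-dG than without it and called 3.45% of all tested genes. Of the 8, 1 had an unadjusted p under 0.05, and DESeq2 called 1, in both cases MALAT1. MALAT1 had the largest positive interaction of the 8, 1.40 ± 0.43, and it was called without osimertinib 5, at 1.70, or without combination 1, at 1.55. For NEAT1 the interaction was 0.61 ± 0.35, for KCNQ1OT1 -1.27 ± 0.96, and for SNHG1 0.03 ± 0.17. For the other 4 hosts it lay between -0.11 for SNHG5 and 0.30 for GAS5.

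**Figure D3:**
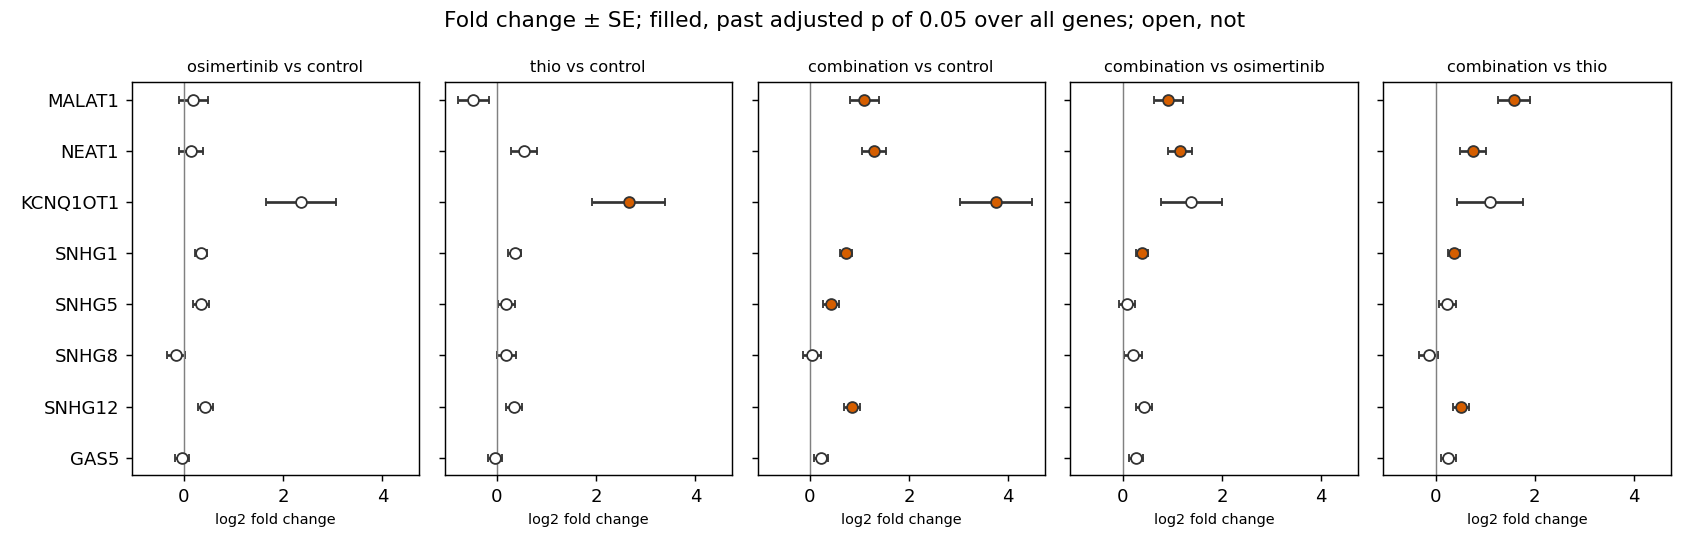
Log2 fold change with its SE (bar) of the 8 genes in the 5 pairwise comparisons, from 1 edgeR fit over 19 libraries. Filled points were called and open points were not. KCNQ1OT1 has the largest folds and the longest bars, and filled points are most frequent in combination against control, 6 of 8.

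Other genes of the same kinds, grouped in lists by role, gave a wider view. Of 11 tested other nuclear lncRNAs, 9 rose and 0 fell in combination against control, with a median log2 change of 0.87 beside 0.02 over all genes. The shares of all tested genes to read these lists against are 25.7% higher and 23.1% lower, or 14.5% and 13.8% without the 3 doubted libraries. Leaving those out, 7 of 10 tested rose and 0 fell. HOTAIR, transcribed from the HOXC cluster, rose by 1.30 ± 0.22 (edgeR, adjusted p = 0.000237), from 3.98 ± 0.434 CPM (SD, n = 5) to 9.80 ± 2.92 CPM (n = 5). HOTAIRM1, from the HOXA cluster, rose by 1.06 ± 0.18 (edgeR, adjusted p = 0.000229). CDKN2B-AS1, antisense in the CDKN2A and CDKN2B locus, rose by 1.33 ± 0.18 (edgeR, adjusted p = 3.42e-05).

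Of 18 tested other snoRNA hosts, 8 rose and 1 fell in combination against control, with a median of 0.34. Without the 3 doubted libraries 3 rose and 0 fell. SNHG4 rose by 0.68 ± 0.14 (edgeR, adjusted p = 0.000936) and SNHG11 by 0.50 ± 0.14 (edgeR, adjusted p = 0.00677), while SNHG16 fell by 0.38 ± 0.13 (edgeR, adjusted p = 0.0192). ZFAS1, a host that overlaps the start of ZNFX1 on the other strand, rose by 0.59 ± 0.14 in combination (edgeR, adjusted p = 0.0027). It rose in thio too, by 0.82 ± 0.15 (edgeR, adjusted p = 0.00225), from 88.8 ± 8.34 CPM (SD, n = 5) in control to 157 ± 46.3 CPM (n = 4). In thio 1 of the 18 rose and 1 fell, beside 9.27% and 4.63% of all tested genes. In osimertinib 0 of 18 were called in either direction by edgeR and 0 by DESeq2, and 3 had an unadjusted p under 0.05.

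Nuclear speckle genes, the protein partners of MALAT1, rose more often than they fell in combination against control, 9 and 2 of 16, with a median of 0.29. Without the 3 doubted libraries 5 rose and 1 fell. SRSF11, a splicing factor, rose by 1.35 ± 0.20 (edgeR, adjusted p = 7.86e-05), and SRRM1, a coactivator of splicing, by 0.86 ± 0.13 (edgeR, adjusted p = 7.89e-05). PNISR, a speckle protein, rose by 0.97 ± 0.16 (edgeR, adjusted p = 0.000196) and CLK1, a kinase that phosphorylates SR proteins, by 0.94 ± 0.20 (edgeR, adjusted p = 0.000962). LUC7L3, a factor of the U1 snRNP, rose by 1.06 ± 0.18 in combination against thio (edgeR, adjusted p = 0.000164).

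Of 16 tested genes for paraspeckle proteins, the partners of NEAT1, 1 rose and 4 fell in combination against control, with a median of -0.19. The count of lower genes is close to the background of 23.1%. NONO, a core paraspeckle protein, fell by 0.56 ± 0.15 (edgeR, adjusted p = 0.00584), from 1160 ± 119 CPM (SD, n = 5) to 788 ± 200.3 CPM (n = 5). HNRNPK fell by 0.78 ± 0.19 (edgeR, adjusted p = 0.0027) and RBM14 by 0.49 ± 0.13 (edgeR, adjusted p = 0.00389). SS18L1 rose by 0.55 ± 0.14 (edgeR, adjusted p = 0.0035). Without the 3 doubted libraries 0 rose and 2 fell. Under upper-quartile scaling the count was 3 and 3, and the median in combination against thio turned from -0.07 to 0.10.

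Genes of snoRNP assembly encode the proteins that package the snoRNAs carried by the hosts. In combination against control 0 of 18 rose and 10 fell, beside 23.1% of all tested genes called lower, with a median of -0.38, and without the 3 doubted libraries 0 rose and 3 fell. FBL, the 2′-O-methyltransferase of C/D box snoRNPs, fell by 0.52 ± 0.15 (edgeR, adjusted p = 0.00884). NOLC1, a chaperone of snoRNPs, fell by 0.68 ± 0.18 (edgeR, adjusted p = 0.00448), and RUVBL1, a helicase of their assembly, by 0.82 ± 0.20 (edgeR, adjusted p = 0.00303). In combination against thio upper-quartile scaling turned the median of this list from -0.15 to 0.03.

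Protein-coding genes with a terminal oligopyrimidine tract, the promoter class that many hosts share, gave 0 higher and 8 lower of 20 in combination against control, beside 23.1% of all tested genes called lower, with a median of -0.19. EEF2, the elongation factor that moves the ribosome, fell by 0.84 ± 0.20 (edgeR, adjusted p = 0.00251), EIF4B by 0.74 ± 0.14 (edgeR, adjusted p = 0.000524) and EIF3L by 0.70 ± 0.17 (edgeR, adjusted p = 0.00255). Without the 3 doubted libraries 0 rose and 4 fell.

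Nonsense-mediated decay removes the spliced RNA of several hosts, and decay itself was not measured here. Of 14 tested factors of this pathway, 1 rose and 8 fell in combination against control, with a median of -0.37. In that comparison 23.1% of all tested genes were called lower. UPF1, the helicase at the centre of the pathway, fell by 0.74 ± 0.12 (edgeR, adjusted p = 0.000169). CASC3, of the exon junction complex, fell by 0.98 ± 0.16 (edgeR, adjusted p = 0.000128), from 94.7 ± 8.84 CPM (SD, n = 5) to 48.1 ± 9.42 CPM (n = 5). SMG5 fell by 0.91 ± 0.17 (edgeR, adjusted p = 0.000346) and EIF4A3 by 0.87 ± 0.20 (edgeR, adjusted p = 0.0017). Without the 3 doubted libraries 1 rose and 6 fell. In osimertinib against control 0 of the 14 were called by edgeR and 0 by DESeq2, and 2 had an unadjusted p under 0.05. In thio against control these 3 numbers were the same.

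**Figure D4:**
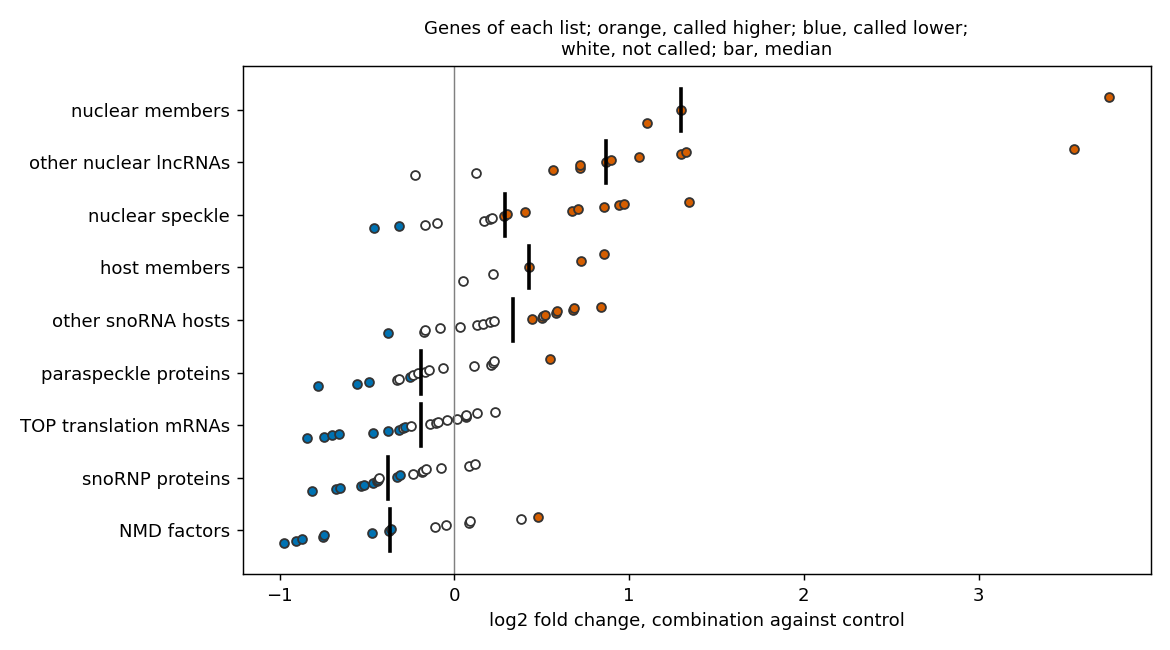
Log2 fold change in combination against control of each tested gene in 9 lists, with the list median as a bar. Orange points were called higher, blue points lower and white points not called. Nuclear lncRNAs, snoRNA hosts and speckle genes lie mostly above 0, and the snoRNP, terminal oligopyrimidine and decay lists lie mostly below it.

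Beside all of these counts, the mitochondrial share was higher in every combination library than in any control. A fit with that share as a covariate thus cannot separate it from the arm. With the mitochondrial percent as a covariate, 542 of all tested genes were called in combination against control, or 3.24%, with 353 higher and 189 lower. On the lists above, the called genes were then 1 other nuclear lncRNA, 1 other host and 2 speckle genes, all higher. The lists of paraspeckle, snoRNP, terminal oligopyrimidine and decay genes then had 0 called genes by edgeR, with 2, 0, 2 and 3 genes at an unadjusted p under 0.05.

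Genes beside the 8 loci did not share 1 direction. Of 14 tested neighbours 3 rose and 2 fell in combination against control, with a median of 0.01, beside 25.7% and 23.1% of all tested genes. Without the 3 doubted libraries 1 rose and 1 fell. SLC3A2, an amino acid transporter subunit next to SNHG1, fell by 0.77 ± 0.13 (edgeR, adjusted p = 0.000174), from 203 ± 25.6 CPM (SD, n = 5) to 119 ± 22.0 CPM (n = 5), while SNHG1 was higher in the same libraries.

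The genes whose log2 CPM ran most alike were found by Pearson's r over the 19 libraries among 11399 genes, as a description. For MALAT1 they were ZNF133 (r = 0.970), LUC7L3 (r = 0.962) and ZNF337 (r = 0.960). For NEAT1 they were CEACAM19 (r = 0.970), CCDC174 (r = 0.953) and TBC1D3H (r = 0.952). For KCNQ1OT1 they were BRWD1 (r = 0.928), CCNT2 (r = 0.927) and ZDHHC17 (r = 0.912). For the mean of the 5 hosts they were RPL28 (r = 0.920), SAT2 (r = 0.913) and CCDC17 (r = 0.906). No gene appeared among the closest of more than 1 of these profiles, and LUC7L3 is on the nuclear speckle list. All of these values share the libraries, their depth and the differences between arms.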

How the data were processed

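The deposited values are raw counts per gene symbol in 1 table of 31276 genes and 19 libraries, per the file headers. FastQC, Trimmomatic, STAR and the human build hg38 were used by the authors, per the submitters' processing notes, which give no versions, and the sources used here name no counter or annotation. Per the labels' protocols, poly-A RNA was taken and the kit keeps no strand. The labelled organism is the mouse, but symbols are human. Genes and lists were chosen with earlier results of these data known.

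The counts were fitted with edgeR 4.0.16 (R 4.3.3). Of the table, 16704 genes passed filterByExpr by group, at a count minimum of 10 and a total minimum of 15, and they held at least 99.8% of each library's counts. With TMM scaling, 1 quasi-likelihood fit over 19 libraries gave 5 pairwise contrasts and the interaction, adjusted by the Benjamini-Hochberg method over all of these genes. The code was first tested on simulated data with known changes. Alternatives were DESeq2 1.42.0, other scalings and filters, covariates and left-out libraries. Control 5 and osimertinib 5 were also left out together. The numbers in their titles lie outside the run of the other titles, and what these numbers stand for is not given. Replicate numbers are only names, given in the order of the deposit, and no samples are paired. Levels are CPM on TMM-scaled library sizes, and shares use unscaled counts. The olfactory receptor level and the CPM given for a count of 0 also use unscaled totals. A count of 0 allows up to 3 counts, which covers counting error only. From each list, up to 4 called genes with the smallest p per contrast could be named, and a part of them is. Of tested symbols, 322 have the counts of another symbol, and none of these is named. No human reference sequence was used here, so levels were not compared between genes per length.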

Additional observations from a re-analysis of the deposited data

Results flagged for a closer look

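In 52 checks of single libraries against the rest of their group, 2 stood far from the others, where chance gives about 1 in 20. SNHG12 in osimertinib 3 was at 32.2 CPM, below the 52.4 to 59.6 CPM of the other 4 osimertinib libraries. The summed share of the 5 hosts in the same library was 0.0244% of its counts, the lowest of all 19 libraries. Osimertinib 3 also had the lowest MALAT1, NEAT1, KCNQ1OT1, SNHG1, SNHG5 and GAS5 levels and the lowest mitochondrial share of its group, but not the lowest SNHG8 level. Without it, SNHG12 in osimertinib against control was 0.56 and called. SNHG12 is part of the host share, so the 2 flags are not separate, and 2 in 52 is no more than the chance rate above. Whether anything sets this library apart was not tested.

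By edgeR's test of whether osimertinib acted differently with 6-thio-dG than without it, 4 of 128 tested list genes were called, or 3.12%. All 4 were positive. Of all tested genes 3.45% were called, 1.24% as higher and 2.21% as lower. The lists were chosen with earlier results of these data known. The log2 interactions were 1.68 ± 0.33 for HOTAIR (adjusted p = 0.0265), 1.02 ± 0.27 for HOTAIRM1 (adjusted p = 0.0432), 0.92 ± 0.24 for LUC7L3 (adjusted p = 0.043) and 0.96 ± 0.26 for UPF3B (adjusted p = 0.0485). Of 35 tested cell type markers 1 was called, FAP at 1.48 ± 0.39 (adjusted p = 0.0452). Of 7 tested skeletal muscle markers 0 were called by edgeR, but 6 had an unadjusted p under 0.05, with a median log2 interaction of 3.96. DESeq2 called 4 of these 7 as higher, and 2 of 8 tumour epithelium markers as lower. HOTAIR was 3.98 ± 0.434 CPM (SD, n = 5) in control, 2.38 ± 0.735 CPM (n = 4) in thio, 5.08 ± 1.12 CPM (n = 5) in osimertinib and 9.80 ± 2.92 CPM (n = 5) in combination. LUC7L3 had the same order of group means, 265 ± 22.6, 203 ± 31.2, 293 ± 78.3 and 423 ± 77.1 CPM. The HOTAIR call was lost in 6 of the fits that left out 1 library, with interactions between 1.50 and 1.82 over all such fits. The other 3 calls were lost in 12 to 15 of them. Without combination 3, combination 5 and thio 3, or with the mitochondrial percent as a covariate, none of the 4 kept its call.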

How the results depend on the processing

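RLE scaling, a stricter filter and removal of the mitochondrial genes left the number of the 8 genes called unchanged in each of the 6 comparisons. With 1 library left out that number ran from 0 to 1 in osimertinib against control, 0 to 2 in thio against control, 5 to 6 in combination against control, 1 to 4 in combination against osimertinib, 2 to 4 in combination against thio and 0 to 1 in the interaction. In osimertinib against control it was 1 with no filter, with DESeq2 or without combination 3, combination 5 and thio 3, in place of 0. In thio against control, in place of 1, it was 0 with the groups of the contrast alone, with the olfactory covariate or without those 3 libraries, 2 without control 5 and osimertinib 5, and 3 with the mitochondrial covariate. In combination against control, in place of 6, it was 0 under either covariate, 4 without those 3 libraries and 5 with no filter or without control 5 and osimertinib 5. In combination against osimertinib, in place of 3, it was 1 with the groups alone, 2 with no filter, 4 with DESeq2 or without control 5 and osimertinib 5, and 0 under either covariate or without those 3 libraries. In combination against thio, in place of 4, it was 2 with the groups alone, 3 with no filter, 5 with upper-quartile scaling, 0 with the mitochondrial covariate, 1 with the olfactory covariate and 1 without those 3 libraries. In the interaction, in place of 0, it was 1 without control 5 and osimertinib 5 and 1 with DESeq2. The interaction needs all 4 groups and was not run on groups alone. The causes were not tested. The covariates also took away most calls of all genes, 8139 becoming 542 with the mitochondrial percent and 136 with the olfactory level in combination against control. In that comparison neither covariate overlapped between the groups, so it cannot be separated from the arm. With mitochondrial counts left out of the total, the mean host share moved from 0.0318% to 0.0340% in thio and from 0.0401% to 0.0497% in combination.

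Upper-quartile scaling moved the median log2 change of all genes to 0.21 in combination against thio, and the share of called genes that were higher from 48.1% to 65.5% there, from 51.4% to 64.8% in combination against osimertinib and from 66.7% to 55.6% in thio against control. It added a call of GAS5 in combination against thio, at 0.45. Of the log2 differences, these changed sign. Under upper-quartile scaling SNHG8 in combination against thio became 0.047 and the SNHG5 interaction 0.035, and with no filter SNHG8 in combination against control became -0.0023. With the mitochondrial covariate osimertinib against control became -0.26 for MALAT1 and -0.13 for NEAT1. Combination against control became -0.036 for MALAT1 and 0.018 for EEF1A1. Combination against thio became -0.13 for NEAT1, -0.84 for KCNQ1OT1, -0.0041 for SS18L1, 0.060 for NONO and 0.014 for NOLC1. The interaction became -0.0035 for NEAT1, -0.15 for SNHG1, -0.020 for SNHG8 and -0.13 for SNHG12. With the olfactory covariate osimertinib against control became -0.16 for MALAT1 and -0.31 for NEAT1. Combination against control became -0.10 for SNHG8, 0.066 for RUVBL1 and 0.035 for NOLC1, combination against osimertinib -0.16 for KCNQ1OT1 and -0.099 for SNHG5, and combination against thio -0.55 for KCNQ1OT1. Without combination 3, combination 5 and thio 3, SNHG5 in thio against control became -0.014, SNHG8 in combination against thio 0.025, the SNHG1 interaction -0.034 and the SNHG5 interaction 0.040. Without control 5 and osimertinib 5, MALAT1 in osimertinib against control became -0.091, and the interactions of SNHG1 and SNHG8 became -0.014 and -0.088.

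With 1 library left out, GAS5 ran from -0.094 to 0.052 in osimertinib against control and from -0.17 to 0.047 in thio against control. MALAT1 in osimertinib against control ran from -0.12 to 0.35. SNHG5 ran from -0.0063 to 0.27 in thio against control and from -0.017 to 0.16 in combination against osimertinib, and SNHG8 from -0.064 to 0.14 in combination against control. The interactions ran from -0.050 to 0.095 for SNHG1, -0.21 to 0.089 for SNHG5, -0.096 to 0.18 for SNHG8 and -0.048 to 0.15 for SNHG12. None of the differences that changed sign with 1 library left out was called with all libraries. KCNQ1OT1 rests on 0 to 25 counts per control library. No paired analysis was possible because the labels give no replicate numbers.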
